A study of Arabidopsis thaliana with 8 samples.

Results

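In the primary root of Col-0 Arabidopsis thaliana, 37 of 33602 loci in the count table had a light effect that pointed one way at 4 d and the other way at 7 d. Roots of seedlings with lit shoots were compared with roots of seedlings kept wholly dark. Values are CPM, the count of a locus scaled by the total of its library (depth-scaled counts, not scaled by gene length). The loci were chosen by their measured CPM. A locus was taken when it lay on a nuclear chromosome and averaged at least 2 CPM in each of the 4 groups. Its mean CPM with lit shoots had to be at least 1.5 times the dark mean at one age and at most 0.67 times it at the other. The lit and dark libraries had to stay apart at both ages, which 83.5% of the loci at this level did at 4 d and 84.7% at 7 d in either direction. The lit level at 7 d had to be under 4 times that at 4 d, and the dark level at 7 d above 1/8 of that at 4 d. These values chose the 37 loci, so their light effects, and the changes with age made from the same 4 group means, are given as a description without a test.

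The 4 groups were lit shoots at 4 d, complete darkness at 4 d, lit shoots at 7 d and complete darkness at 7 d, with 2 biological samples of about 70 seedlings in each. For the lit groups, plates stood in an altered D-Root holder that keeps light from the roots, and the shoots received white light of 130 µmol m-2 s for 16 h in each day, followed by 8 h of darkness. The dark plates were wrapped in aluminium foil, so both organs were dark. All seeds were stratified at 4 °C, and all seedlings grew at 21 °C on a medium without sucrose. In such whole-root samples, fewer cells of a type and less RNA in each cell cannot be told apart.

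The 37 loci formed 2 sets. In the early-up set, 17 loci were higher with lit shoots than in the dark at 4 d and lower at 7 d. In the early-down set, 20 loci were lower with lit shoots at 4 d and higher at 7 d. Of 15231 nuclear loci that averaged at least 2 CPM in every group, 2381 (15.6%) had group means that pointed in opposite directions at the 2 ages. Among these, 785 also had libraries that did not overlap at either age and stayed within the limits on age change, 593 of them up and then down and 192 down and then up. The 1.5-fold requirement at both ages reduced those 785 to the 37.

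**Figure D1:**
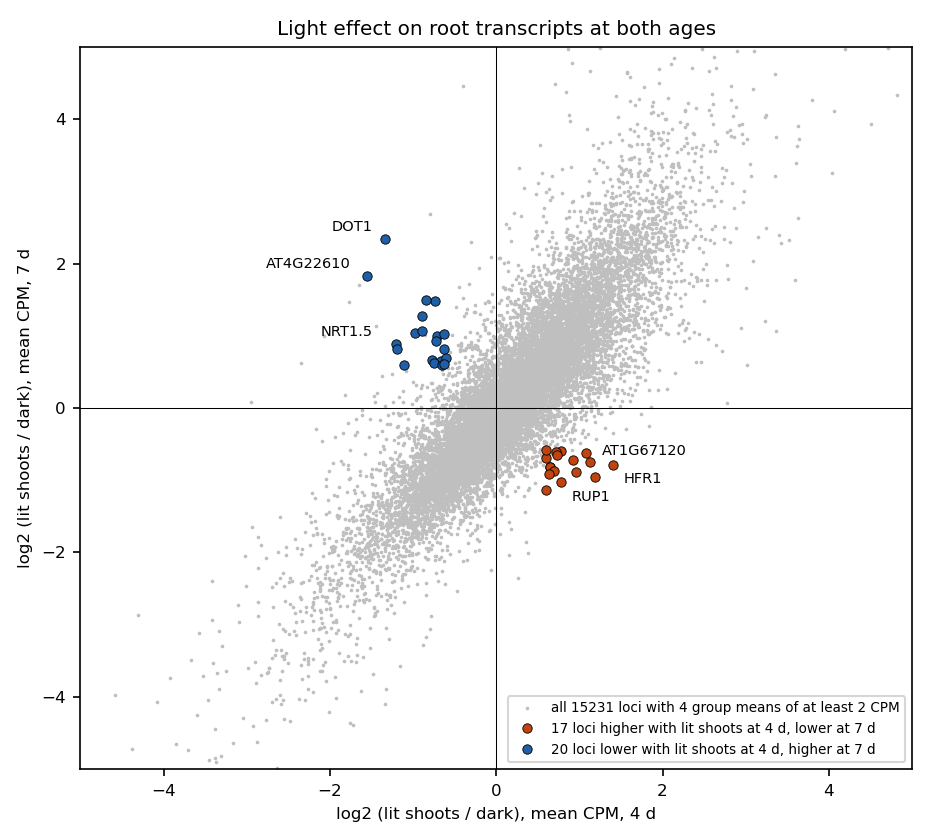
Light effect, as log2 of mean CPM with lit shoots over mean CPM in the dark, at 4 d (x axis) and at 7 d (y axis). Grey points are 15231 loci (37 of them lie beyond the plotted range of 5 log2 units), red points the 17 early-up loci and blue points the 20 early-down loci; most grey points lie along the rising diagonal, and the coloured points lie in the upper left and lower right quadrants, as their choice requires.

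As background, light reaches a root's gene expression through photoreceptors and mobile signals of the shoot, through sugar exported from lit leaves, and through whatever light the root itself receives. The bHLH protein HFR1 restrains the phytochrome-interacting factors, and the WD40 protein RUP1 returns the UV-B photoreceptor UVR8 to its inactive state; both belong to seedling photomorphogenesis. Plastids and mitochondria of roots need nuclear genes for their own transcription and RNA maturation, and nitrate that is taken up must be loaded into the xylem to reach the shoot.

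The promoters are shown for 5 loci on which the account turns: RUP1, because it departs from the rest of its set; AT1G67120 and AT5G15700, as examples of the early-up promoters that hold TGGGCC; and AT4G15390 and CYP702A5, which are adjacent. Each is the 250 bases before the annotated start of transcription in RefSeq's annotation of TAIR10.1, 5′ to 3′ on the strand of the gene, and none of these windows overlaps another annotated gene. For RUP1 (chr5:21216522-21216771, + strand) capitals mark ACGTG, the core of the ABRE, and TATAAA, the TATA box. For AT1G67120 (chr1:25095639-25095888, − strand) and AT5G15700 (chr5:5121842-5122091, − strand) capitals mark TGGGCC, the site II element. For AT4G15390 (chr4:8794443-8794692, − strand) and CYP702A5 (chr4:8803820-8804069, + strand) capitals mark TATAAA. Both strands were searched.
RUP1: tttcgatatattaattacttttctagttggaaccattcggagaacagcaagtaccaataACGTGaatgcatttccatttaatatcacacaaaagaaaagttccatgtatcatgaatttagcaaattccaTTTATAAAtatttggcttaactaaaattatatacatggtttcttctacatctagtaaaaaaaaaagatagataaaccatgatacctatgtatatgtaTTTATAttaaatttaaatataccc
AT1G67120: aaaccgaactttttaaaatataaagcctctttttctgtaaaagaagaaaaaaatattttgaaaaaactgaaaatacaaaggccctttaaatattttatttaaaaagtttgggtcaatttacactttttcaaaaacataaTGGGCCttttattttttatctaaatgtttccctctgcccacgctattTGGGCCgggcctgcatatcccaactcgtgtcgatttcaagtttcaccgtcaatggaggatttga
AT5G15700: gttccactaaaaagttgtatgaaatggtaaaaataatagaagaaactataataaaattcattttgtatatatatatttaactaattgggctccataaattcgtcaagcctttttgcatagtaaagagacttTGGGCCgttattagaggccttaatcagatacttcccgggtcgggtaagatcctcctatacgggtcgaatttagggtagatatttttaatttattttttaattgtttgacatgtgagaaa
AT4G15390: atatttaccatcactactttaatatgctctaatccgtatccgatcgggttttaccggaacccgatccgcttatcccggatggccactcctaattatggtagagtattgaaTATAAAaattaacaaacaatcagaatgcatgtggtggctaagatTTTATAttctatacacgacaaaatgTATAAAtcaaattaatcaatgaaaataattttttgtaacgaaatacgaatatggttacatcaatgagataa
CYP702A5: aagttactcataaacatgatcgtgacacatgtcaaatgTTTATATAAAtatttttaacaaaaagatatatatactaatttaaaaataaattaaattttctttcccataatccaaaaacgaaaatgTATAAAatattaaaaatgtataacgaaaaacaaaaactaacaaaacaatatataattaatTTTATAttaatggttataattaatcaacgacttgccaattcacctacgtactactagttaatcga

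In the RUP1 promoter ACGTG began 191 bases before the start, and TATAAA occurred once on the strand of the gene and 2 times on the other strand. TGGGCC began 111 and 64 bases before the start of AT1G67120 and 119 bases before that of AT5G15700. In AT4G15390 the match of TATAAA nearest the start began 71 bases before it, on the strand of the gene. These matches are letters in a window and not sites shown to be used.

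The light signalling loci of the early-up set were HFR1 and RUP1. HFR1 had 13.6 and 14.6 CPM with lit shoots at 4 d, against 5.33 and 5.33 CPM in the dark. At 7 d it had 5.45 and 10.15 CPM with lit shoots, against 15.3 and 11.5 CPM in the dark. The log2 light effect was thus 1.40 at 4 d, the largest of the early-up set at that age, and -0.78 at 7 d. The lit libraries at 7 d differed 1.86-fold from each other, and one of them lay close to the dark libraries at 4 d; the 7 d effect was -0.40 without the first lit library and -1.3 without the second. RUP1 had 21.0 and 21.3 CPM with lit shoots at 4 d, against 11.7 and 13.03 CPM in the dark. The 7 d libraries had 5.30 and 8.15 CPM with lit shoots, against 15.6 and 11.7 CPM in the dark. The dark libraries of the 2 ages overlapped, so the reversal of RUP1 lay in the lit groups: its lit mean at 7 d was lower by 1.65 on the log2 scale, the lowest such value among the 37 loci. HFR1 and RUP1 were the only early-up loci with their highest mean in lit roots at 4 d.

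RUP2, the close relative of RUP1 with the same known role, was no member. It averaged 8.30 ± 0.91 CPM with lit shoots and 2.4 ± 0.35 CPM in the dark at 4 d, and 4.82 ± 0.69 CPM with lit shoots and 3.05 ± 0.57 CPM in the dark at 7 d (SD, n = 2 each). Its lit libraries were above the dark ones at both ages. In edgeR's quasi-likelihood test the 4 d difference passed (log2 fold change 1.59, SE 0.24, adjusted p = 0.000672) and the 7 d difference did not (0.49, SE 0.24, adjusted p = 0.0946). The change in light effect with age also missed the threshold (log2 -1.10, SE 0.34, adjusted p = 0.0619, edgeR). UVR8 itself stayed between 45.1 and 52.8 CPM in all 8 libraries. It was still called lower with lit shoots at 7 d (log2 fold change -0.31, SE 0.11, adjusted p = 0.0290, edgeR). At 4 d it was not called (-0.17, SE 0.11, adjusted p = 0.211, edgeR).

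Several early-up loci encode proteins of the plastid or of organelle gene expression. PDE312, a nucleoid protein that works with the plastid-encoded RNA polymerase, had 14.2 and 13.4 CPM with lit shoots at 4 d, against 7.29 and 5.76 CPM in the dark. At 7 d it had 12.3 and 14.0 CPM with lit shoots, against 21.6 and 18.6 CPM in the dark. Its lit libraries overlapped between the ages, and the dark libraries lay below them at 4 d and above them at 7 d. AT5G15700, annotated as a DNA/RNA polymerase superfamily protein, had 21.1 and 19.8 CPM with lit shoots at 4 d, against 12.6 and 13.8 CPM in the dark. The 7 d libraries had 24.7 and 21.8 CPM with lit shoots, against 44.2 and 43.4 CPM in the dark. Dark roots at 7 d thus held by far the most of this transcript, and the lit libraries of both ages lay between the dark groups. ACP4, an acyl carrier protein of plastid fatty acid synthesis, had 6.35 and 6.08 CPM with lit shoots at 4 d, against 3.21 and 2.25 CPM in the dark, and 3.33 and 4.81 CPM with lit shoots at 7 d, against 7.22 and 8.49 CPM in the dark.

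CHUP1, which anchors chloroplasts to actin, had 17.2 and 11.5 CPM with lit shoots at 4 d, against 7.18 and 7.54 CPM in the dark. At 7 d its lit libraries had 7.58 and 9.26 CPM, against 17.2 and 13.9 CPM in the dark, so that lit roots at 7 d came close to dark roots at 4 d. OTP70, a repeat protein needed for splicing of a plastid transcript, was near the minimum, with group means of 3.70 and 2.25 CPM in lit and dark roots at 4 d and 2.68 and 4.08 CPM in lit and dark roots at 7 d. The pentatricopeptide repeat locus AT1G19720 had means of 8.81 and 5.62 CPM in lit and dark roots at 4 d and 5.94 and 10.4 CPM in lit and dark roots at 7 d. AT1G65080, annotated as an OxaA/YidC membrane insertion protein, had means of 4.66 and 3.07 CPM in lit and dark roots at 4 d and 5.46 and 8.85 CPM in lit and dark roots at 7 d.

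The phage-type RNA polymerases SCA3 and MGP3 were no members. On CPM SCA3 also reversed, with log2 light effects of 0.39 at 4 d and -1.14 at 7 d. Its lit and dark libraries did not overlap at either age, and it missed the 1.5-fold limit at 4 d. Whether either locus differed from AT5G15700 was not tested. SCA3, the plastid enzyme, averaged 19.9 ± 0.21 CPM with lit shoots and 15.3 ± 0.034 CPM in the dark at 4 d, and 20.4 ± 2.33 CPM with lit shoots and 44.9 ± 0.11 CPM in the dark at 7 d (SD, n = 2 each). Its 7 d difference passed the test (log2 fold change -1.31, SE 0.12, adjusted p = 2.47e-05, edgeR) and its 4 d difference did not (0.19, SE 0.12, adjusted p = 0.224). MGP3 averaged 41.9 ± 3.46 CPM with lit shoots and 20.5 ± 0.66 CPM in the dark at 4 d, and 40.6 ± 3.99 CPM with lit shoots and 40.1 ± 3.82 CPM in the dark at 7 d. Its 4 d difference passed (0.83, SE 0.12, adjusted p = 0.000526, edgeR) and its 7 d difference did not (-0.15, SE 0.12, adjusted p = 0.288). The light effect itself differed between the ages for both loci (interaction log2 -1.50, adjusted p = 0.00198 for SCA3; -0.98, adjusted p = 0.00901 for MGP3; edgeR).

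Nucleolar and nuclear functions made up the next group of the early-up set. AT1G67120 encodes a midasin-like protein, in yeast a large ATPase that matures the large ribosomal subunit, and has the longest transcript of the set, 16593 bases. It had 191 and 214 CPM with lit shoots at 4 d, against 89.4 and 96.6 CPM in the dark. At 7 d it had 228 and 189 CPM with lit shoots, against 320 and 377 CPM in the dark. The lit groups overlapped between the ages, and the dark groups bracketed them from below at 4 d and from above at 7 d. NUC-L2, a nucleolin that acts on ribosomal RNA genes, had 4.40 and 4.94 CPM with lit shoots at 4 d, against 3.21 and 2.96 CPM in the dark, and 8.16 and 5.73 CPM with lit shoots at 7 d, against 15.6 and 14.8 CPM in the dark. Its change with age in the dark, 2.30 on the log2 scale, was the largest of the set. Its 4 d effect of 1.51-fold lay just inside the limit and was not called by edgeR (log2 fold change 0.40, SE 0.22). NUC-L2 no longer met the limits on TMM-scaled CPM, nor on CPM scaled by nuclear counts alone.

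The main nucleolin NUC-L1 did not follow NUC-L2. It averaged 285 ± 18.16 CPM with lit shoots and 75.9 ± 6.11 CPM in the dark at 4 d, and 283 ± 40.3 CPM with lit shoots and 112 ± 5.13 CPM in the dark at 7 d (SD, n = 2 each), and was called higher with lit shoots at both ages (adjusted p = 3.38e-05 at 4 d and 4.63e-05 at 7 d, edgeR). TAF4B, a subunit of the general transcription factor TFIID, had means of 3.57 and 2.28 CPM in lit and dark roots at 4 d and 2.89 and 5.09 CPM in lit and dark roots at 7 d. AT1G29030, annotated as an apoptosis inhibitory protein 5, had 14.1 and 15.6 CPM with lit shoots at 4 d, against 7.86 and 7.86 CPM in the dark, and 20.3 and 17.97 CPM with lit shoots at 7 d, against 29.8 and 32.9 CPM in the dark.

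The remaining early-up loci, given so that every member is accounted for, were TIL, RUS4, the C2H2 zinc finger locus AT2G28710 and the uncharacterized AT2G15830. TIL, a lipocalin that guards membranes against heat and cold, had 87.0 and 65.7 CPM with lit shoots at 4 d, against 55.6 and 36.2 CPM in the dark, and 49.98 and 75.1 CPM with lit shoots at 7 d, against 103 and 92.8 CPM in the dark. RUS4 lay just inside the limits, with a light effect of 1.51-fold at 4 d and 0.669-fold at 7 d, and its dark libraries at 4 d differed 2.01-fold from each other; its 4 d effect was 0.59 on the log2 scale with both, 0.18 without the first and 1.18 without the second. AT2G28710 and AT2G15830 had log2 light effects of 0.78 and 0.70 at 4 d and of -0.60 and -0.87 at 7 d. The lit libraries of AT2G15830 at 7 d had 4.37 and 8.84 CPM, a 2.02-fold gap, and its 7 d effect was -0.45 without the first of them and -1.47 without the second. Just outside the limits on the early-up side were AT3G18020, at 1.88-fold and 0.671-fold, and AT5G64230, at 1.64-fold and 0.676-fold.

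**Figure D2:**
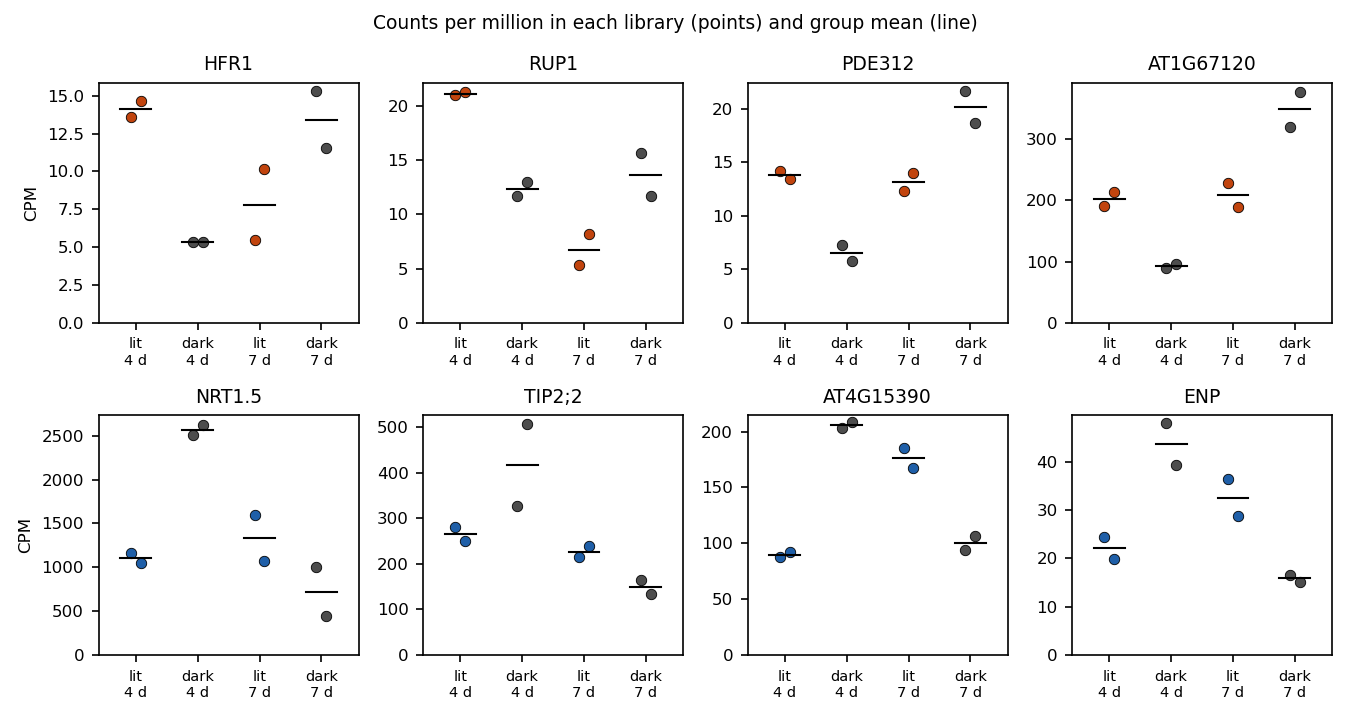
CPM of 8 loci in each library (points, 2 libraries in each group) with the group mean (line); y axes start at 0. The top row shows early-up loci and the bottom row early-down loci, with lit groups in colour and dark groups in grey; in AT1G67120 the lit means are 203 and 209 CPM at 4 d and 7 d while the dark means are 93.0 and 349 CPM.

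The early-down set held transporters of nitrate and water. NRT1.5, which loads nitrate into the root xylem, had the highest level per transcript length of all 37 loci, 647 CPM per kb over the 8 libraries; the highest early-up level on that scale was 55.6 CPM per kb, of TIL. NRT1.5 had 1168 and 1054 CPM with lit shoots at 4 d, against 2508 and 2624 CPM in the dark. The 7 d libraries had 1593 and 1075 CPM with lit shoots, against 1005 and 441 CPM in the dark. Its lit libraries overlapped between the ages, and the dark libraries were the highest at 4 d and the lowest at 7 d, although the dark libraries at 7 d differed 2.28-fold from each other. NRT1.5 was called lower with lit shoots at 4 d and was not called at 7 d by edgeR. On TMM-scaled CPM it no longer met the limits. NRT1.8, which takes nitrate back out of the xylem sap, was no member: it averaged 1.46 ± 0.19 CPM with lit shoots and 8.91 ± 2.05 CPM in the dark at 4 d, and 2.35 ± 0.50 CPM with lit shoots and 11.8 ± 4.94 CPM in the dark at 7 d (SD, n = 2 each). NRT1.8 was called lower with lit shoots at both ages (log2 fold change -2.8 and -2.49, adjusted p = 0.000240 and 0.000174, edgeR).

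TIP2;2, an aquaporin of the vacuolar membrane, had 282 and 251 CPM with lit shoots at 4 d, against 327 and 508 CPM in the dark. At 7 d it had 214 and 239 CPM with lit shoots, against 165 and 135 CPM in the dark. Its dark libraries at 4 d were far apart, and its 7 d effect of 1.51-fold lay just inside the limit. TIP2;2 was called lower at 4 d and was not called at 7 d by edgeR. The related TIP2;3 was also called lower with lit shoots at 4 d (log2 fold change -1.36, SE 0.27, adjusted p = 0.00393, edgeR) but not at 7 d (-0.27, SE 0.27, adjusted p = 0.398). TIP4;1 and DELTA-TIP were called higher with lit shoots at both ages (log2 fold change 1.60 and 2.75 for TIP4;1, adjusted p = 0.000705 and 3.32e-05; 1.37 and 4.47 for DELTA-TIP, adjusted p = 0.00676 and 3.33e-05; edgeR). GAMMA-TIP was called higher at 7 d (1.05, SE 0.19, adjusted p = 0.00108, edgeR) and missed the threshold at 4 d (0.48, SE 0.19, adjusted p = 0.0543). BETA-TIP, near the detection limit, had 0 and 0.0368 CPM with lit shoots at 4 d, against 0.340 and 0.276 CPM in the dark, and 0 CPM in both lit libraries at 7 d, against 1.97 and 1.3 CPM in the dark. It was called lower with lit shoots at both ages (adjusted p = 0.0136 and 0.000258, edgeR).

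AT4G15390, annotated as an HXXXD-type acyltransferase, had 87.7 and 92.0 CPM with lit shoots at 4 d, against 203 and 209 CPM in the dark. The 7 d libraries had 185 and 167 CPM with lit shoots, against 94.1 and 107 CPM in the dark. Replicates of this locus lay close together in every group. It is the neighbour of CYP702A5, a cytochrome P450, and the pair lies on chromosome 4 at 8792707 to 8794442 and at 8804070 to 8807232 (TAIR10.1). CYP702A5 had 4.89 and 4.97 CPM with lit shoots at 4 d, against 8.88 and 7.66 CPM in the dark, and 8.90 and 12.6 CPM with lit shoots at 7 d, against 6.81 and 7.13 CPM in the dark. Both loci were thus lower with lit shoots at the earlier age and higher at the later one.

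Of 22 loci of the table within 40 kb of the pair, 16 had enough counts to be tested, and AT4G15390 was the only one of them called in opposite directions at the 2 ages by edgeR. CYP702A5 was called lower at 4 d and was not called at 7 d. CYP705A1, CYP705A4 and the acyltransferase BIA1 were called lower with lit shoots at both ages (log2 fold changes from -1.64 to -0.99, edgeR). ATB' GAMMA was also called lower at both ages, by less (-0.39 at 4 d and -0.67 at 7 d). CYP705A2 and PUX5 were called lower at 7 d alone. At 4 d alone, AT4G15475 was called lower and AT4G15450 higher. PEN1, a triterpene synthase, was called lower at 4 d (-1.01, SE 0.16, adjusted p = 0.000726) and missed the threshold at 7 d (-0.30, SE 0.16, adjusted p = 0.117, edgeR). CYP702A6, next to CYP702A5, was called higher at both ages (0.82, SE 0.30, adjusted p = 0.0428; 2.88, SE 0.33, adjusted p = 7.79e-05; edgeR). The transcript of CYP702A5 matched CYP702A6 over 3 stretches of 153 to 315 bases at 93.5% to 95.1% identity, so reads may be shared between them.

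**Figure D3:**
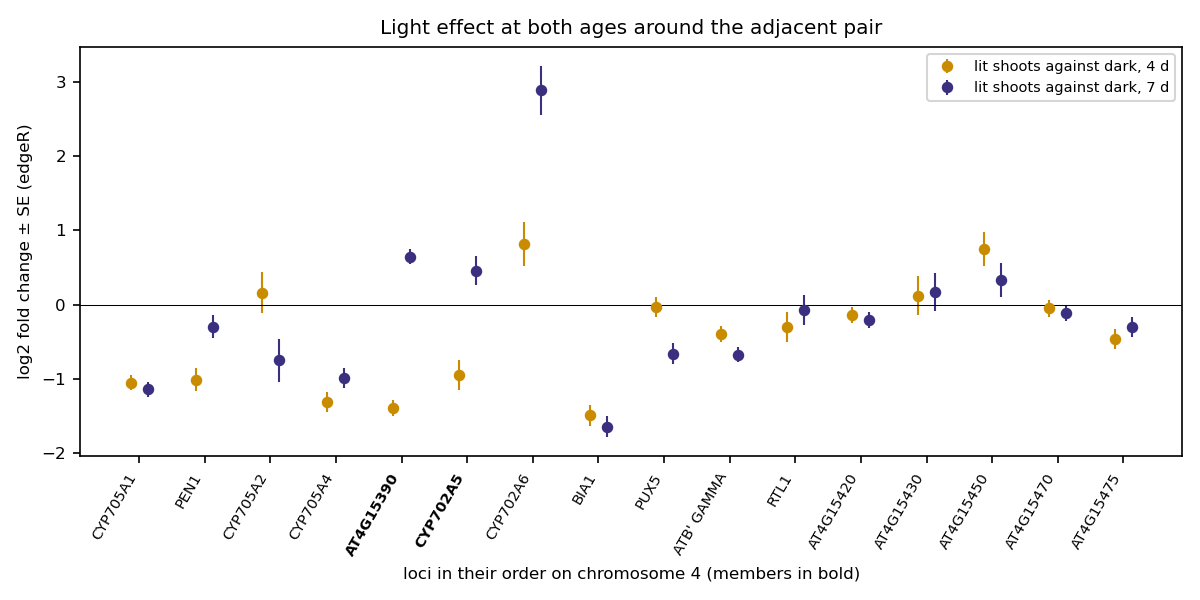
Light effect (edgeR log2 fold change ± SE, 2 libraries in each group) at 4 d and at 7 d for the 16 tested loci within 40 kb of AT4G15390 and CYP702A5, in chromosome order; members in bold. The 2 members lie below 0 at 4 d and above 0 at 7 d, while CYP705A1, CYP705A4 and BIA1 lie near or below -1 at both ages.

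Developmental and cell wall loci followed. ENP, an NPH3-family protein that helps to place auxin carriers in the membrane, had 24.4 and 19.9 CPM with lit shoots at 4 d, against 48.0 and 39.4 CPM in the dark, and 36.4 and 28.8 CPM with lit shoots at 7 d, against 16.6 and 15.2 CPM in the dark. DOT1, a glycine-rich protein named for a vein-pattern mutant, had 25.4 and 21.0 CPM with lit shoots at 4 d, against 54.5 and 63.0 CPM in the dark. At 7 d it had 89.9 and 28.7 CPM with lit shoots, against 13.1 and 10.3 CPM in the dark. Its log2 light effects of -1.34 and 2.34 were the widest reversal among the 37 loci, and its lit libraries at 7 d differed 3.13-fold from each other. GASA4, a gibberellin-responsive peptide, had 184 and 179 CPM with lit shoots at 4 d, against 273 and 290 CPM in the dark, and 140 and 202 CPM with lit shoots at 7 d, against 98.8 and 126 CPM in the dark. BGAL2, a beta-galactosidase of the cell wall, had means of 29.3 and 44.7 CPM in lit and dark roots at 4 d and 41.1 and 25.3 CPM in lit and dark roots at 7 d.

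Among the further early-down loci, AT4G22610, a lipid-transfer protein, had 2.67 and 2.65 CPM with lit shoots at 4 d, against 7.86 and 7.78 CPM in the dark, and 9.13 and 5.5 CPM with lit shoots at 7 d, against 1.45 and 2.66 CPM in the dark. DOT1 and AT4G22610 were the only loci that reversed by at least 2-fold at both ages. AT4G24340, annotated as a phosphorylase, had 27.4 and 24.3 CPM with lit shoots at 4 d, against 48.2 and 44.8 CPM in the dark, and 30.2 and 33.0 CPM with lit shoots at 7 d, against 9.91 and 12.5 CPM in the dark. It matched AT4G24350 over 2 stretches at 92.3% and 94.9% identity, but AT4G24350 had at most 35 counts in any library.

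MSRB7, which repairs oxidized methionine, had 65.6 and 67.1 CPM with lit shoots at 4 d, against 181 and 106 CPM in the dark, and 45.0 and 53.5 CPM with lit shoots at 7 d, against 30.3 and 34.5 CPM in the dark. It shared 157 identical bases with its neighbour MSRB8, whose level was 1.14 and 1.18 CPM with lit shoots at 4 d, against 18.3 and 12.4 CPM in the dark, and 2.05 and 1.41 CPM with lit shoots at 7 d, against 4.51 and 5.69 CPM in the dark. MSRB8 was thus lower with lit shoots at both ages. RTM3, which blocks long-distance movement of a potyvirus, had log2 light effects of -0.63 at 4 d and 1.03 at 7 d. MPS1, a protein of meiosis, had effects of -0.62 and 0.81, from 1.99 to 4.99 CPM across the libraries.

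The other early-down loci carried no symbol, and each is given to account for every member. The CAP-family locus AT2G19970, the lipid-recognition locus AT2G26370 and AT3G51450, of a phosphotriesterase family, had log2 light effects of -0.90, -0.71 and -0.67 at 4 d and of 1.28, 0.99 and 0.66 at 7 d. The uncharacterized AT4G37700 had effects of -0.90 and 1.07. The non-coding RNA locus AT3G27884 had -0.72 and 0.93, and the pseudogene AT3G56275 had -0.73 and 1.48. AT2G07676 had 2.08 and 2.87 CPM with lit shoots at 4 d, against 4.91 and 3.55 CPM in the dark, and 5.76 and 4.65 CPM with lit shoots at 7 d, against 2.94 and 3.6 CPM in the dark. All 357 bases of its transcript matched the mitochondrial genome at 99.7% identity. Mitochondrial loci took 3.89% to 4.53% of counts with lit shoots at 4 d, against 8.68% to 10.5% in the dark, and 2.66% to 6.46% with lit shoots at 7 d, against 4.59% to 5.09% in the dark; the part of mitochondrial reads in the value of AT2G07676 was not tested. Just outside the limits on the early-down side were AT1G20490, at 0.677-fold and 1.62-fold, and AT2G19460, at 0.679-fold and 1.7-fold.

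**Figure D4:**
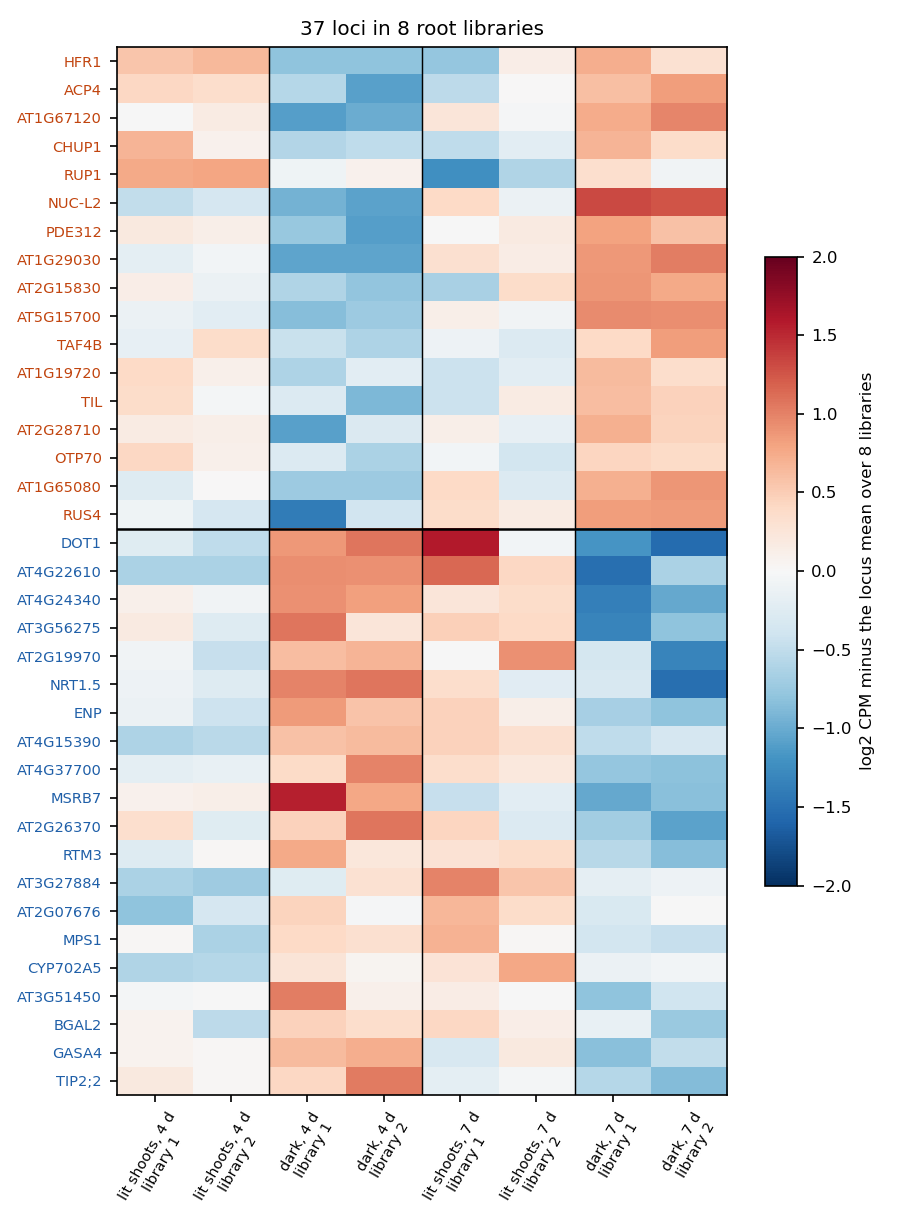
log2 CPM of the 37 loci in 8 libraries, each minus the mean of its locus, with early-up loci (red names) above and early-down loci (blue names) below, ordered within each set by the size of the reversal. Values run from -1.53 to 1.59, the latter of DOT1 in the first lit library at 7 d. The strongest colours lie mostly in the dark libraries. These are low at 4 d and high at 7 d in the early-up set, and the reverse in the early-down set.

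Set beside each other by age, the reversals lay mostly in the dark roots. In the early-up set all 17 loci were higher in the dark at 7 d than in the dark at 4 d, with a median log2 change of 1.52. In lit roots the median change was -0.16, and 11 of the 17 loci were lower at 7 d. The dark change was the larger of the pair in 16 of 17 loci, RUP1 being the exception. In the early-down set all 20 loci were lower in the dark at 7 d, with a median log2 change of -1.43. In lit roots the median change was 0.47, and 17 of the 20 loci were higher at 7 d; TIP2;2, MSRB7 and GASA4 were lower. The dark change was the larger in 17 of 20 loci, and AT2G07676, AT3G27884 and CYP702A5 were the exceptions. Across all 15231 loci, the dark change was the larger in 66.6%, and 58.0% were higher in the dark at 7 d. The median log2 change over all loci was 0.09 in the dark and -0.01 in lit roots. Any reversal places the dark change above the lit change in the early-up set and below it in the early-down set. The choice thus partly fixed these directions.

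The order of the group means followed from this. Dark roots at 7 d had the highest mean in 15 of 17 early-up loci and dark roots at 4 d the lowest in 16. In the early-down set dark roots at 4 d had the highest mean in 15 of 20 loci and dark roots at 7 d the lowest in 16. The dark libraries of the 2 ages did not overlap in 16 of 17 and 18 of 20 loci, beside 71.4% of all 15231 loci, and the lit libraries of the 2 ages did not overlap in 11 of 17 and 15 of 20, beside 55% of all loci. These counts rest on the group means that the choice used and are not evidence for it.

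**Figure D5:**
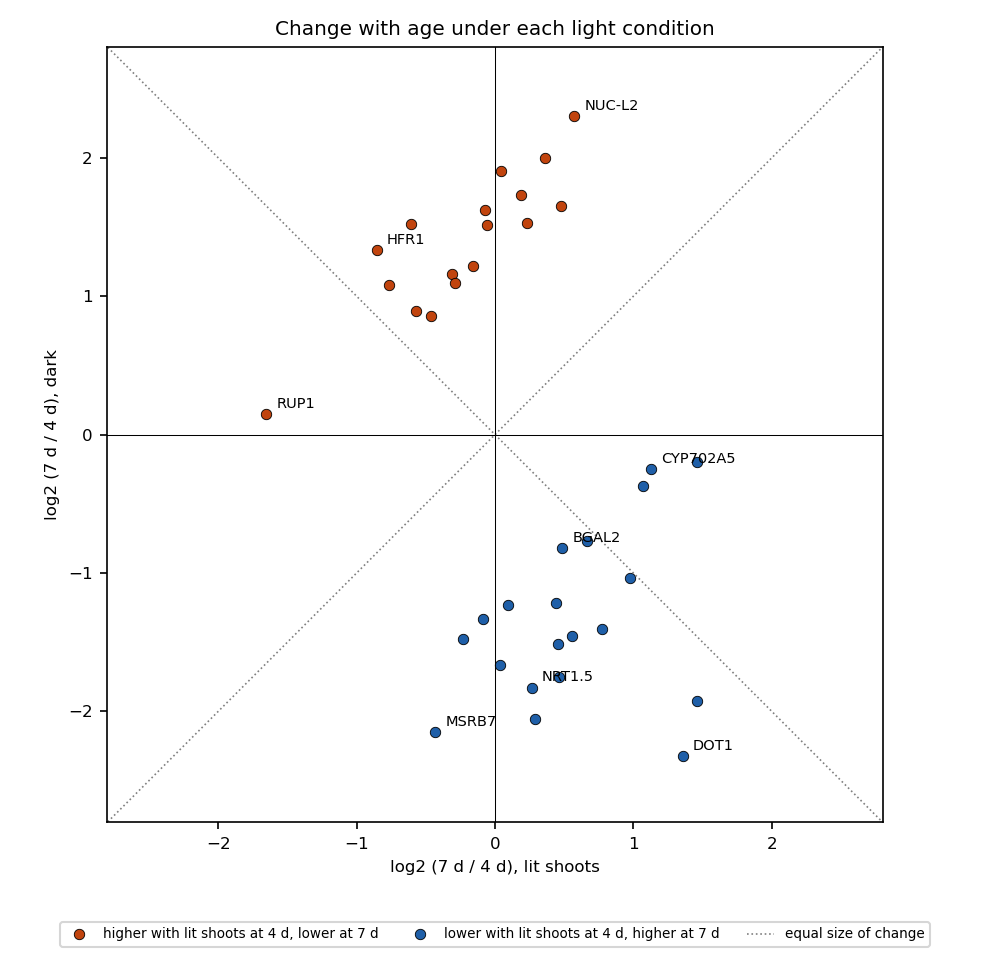
Change with age, as log2 of mean CPM at 7 d over mean CPM at 4 d, in roots with lit shoots (x axis) and in dark roots (y axis), for the early-up loci (red) and early-down loci (blue); dotted lines mark changes of equal size. All 17 early-up loci lie above 0 and all 20 early-down loci below 0 on the dark axis, and RUP1 stands apart at -1.65 on the lit axis.

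The edgeR fit over all 20936 tested loci scales libraries by TMM, which moved the median light effect of all loci by -0.20 (log2) at 4 d and by -0.17 at 7 d. Of the 17 early-up loci, 8 were called higher with lit shoots at 4 d, beside 30.5% of all loci, and 16 were called lower at 7 d, beside 32.8%. Of the 20 early-down loci, 18 were called lower at 4 d, beside 26.6%, and 11 were called higher at 7 d, beside 36.2%. For the difference between the 2 light effects, 15 early-up loci were called below 0, beside 5.57% of all loci, and 16 early-down loci above 0, beside 9.03%. Calls at both ages in opposite directions were made for 8 early-up and 11 early-down loci, beside 0.263% and 0.306% of all loci. Since the same contrasts chose the loci, these counts describe how far each locus stood out and no more. On CPM scaled in this way, 6 early-up and 12 early-down loci still met every limit, and no member changed direction at either age. With 1 library left out in turn no direction could change, because the choice required the lit and dark libraries to stay apart. A log2 light effect then moved by over 1.5 times for HFR1, TAF4B, AT1G65080, AT2G15830, RUS4, AT2G28710, CHUP1 and TIL of the early-up set. In the early-down set this held for NRT1.5, AT2G19970, AT2G26370, DOT1, AT3G27884, AT3G51450, BGAL2, AT3G56275, RTM3, CYP702A5, TIP2;2, MSRB7, AT4G37700, GASA4 and MPS1. The smallest remaining effect was -0.13, of AT3G51450 at 4 d without the first dark library.

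What the choice did not use was position, gene structure and sequence. Early-up genes had a median of 10 exons and a median transcript of 1966 bases, and early-down genes 3.5 exons and 1262.5 bases, against 5 exons and 1823 bases over the 15231 loci. Chromosome 4 held 8 of 20 early-down loci and 2 of 17 early-up loci, against 15.1% of the 15231 loci. In the 250 bases before to 50 after the start, TATAAA lay in 5 of 17 early-up promoters (29.4%) and 12 of 20 early-down promoters (60%), against 51.4% of 15219 promoters of loci at 2 CPM or more and 50.05% of 32834 promoters in all. The 95% Wilson intervals, 13.3% to 53.1% and 38.7% to 78.1%, overlapped.

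TGGGCC lay in 4 early-up promoters (23.5%, in AT1G67120, ACP4, AT5G15700 and TIL) and in 1 early-down promoter (MPS1), against 20.4% of the promoters of loci at 2 CPM or more. AAACCCTA, the telo-box found in many genes of translation, lay in 3 early-up promoters (AT1G67120, RUS4 and NUC-L2) and in 0 of 20 early-down promoters, for which the 95% Wilson interval reached 16.1%; the share over loci at 2 CPM or more was 5.59%. In AT1G67120 and NUC-L2 the match lay after the start, and with the 250 bases before the start alone 1 of 17 early-up promoters (5.88%, RUS4) held it, against 3.54% of those of loci at 2 CPM or more. ACGTG lay in 5 of 17 and 6 of 20 promoters, close to the 27.3% of loci at 2 CPM or more. CACGTG, the G-box, which contains that core, lay in the promoters of AT1G19720, AT3G51450 and AT3G56275, against 8.77% of those of loci at 2 CPM or more. The light-related GATAAG lay in 1 early-up and 2 early-down promoters, against 14.7% of those of loci at 2 CPM or more. AAATATCT, the evening element, lay in 2 early-up promoters (11.8%) and 1 early-down promoter (5%), against 5.72%.

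Of 23 lists of genes of known pathways, 4 held a member: HFR1 in light signalling, TIP2;2 in the aquaporins, CYP702A5 in the cytochromes P450 and NRT1.5 in nitrogen uptake and assimilation. RUP1 was on none of them. Among 36 tested light signalling loci other than HFR1, 9 were called higher and 10 lower with lit shoots at 4 d, and 8 higher and 16 lower at 7 d (edgeR, adjusted p below 0.05). Among 22 aquaporins other than TIP2;2, 7 were higher and 6 lower at 4 d, and 13 higher and 3 lower at 7 d. Among 25 nitrogen loci other than NRT1.5, 9 were higher and 4 lower at 4 d, and 11 higher and 6 lower at 7 d. Among 152 other cytochromes P450, 51 were higher and 52 lower at 4 d, and 58 higher and 62 lower at 7 d. Of the 745 tested list loci that were no members, 0 were called in opposite directions at the 2 ages by edgeR, 4 had opposite effects at an unadjusted p below 0.05, and DESeq2 called 3 (the peroxidase loci AT2G18150 and AT3G32980, and RPT2 of phototropin signalling). By edgeR, 55 and 64 of all 20936 loci were so called, up and then down and down and then up.

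Counts per library totalled 25326045 to 30555290, and counts of a member in a library ran from 39 to 66453; 14 of 37 loci had a count under 100 in at least 1 library. Root markers summed to 1535 to 1624 CPM with lit shoots at 4 d, against 838 to 1086 CPM in the dark, and to 1492 to 1660 CPM with lit shoots at 7 d, against 570 to 647 CPM in the dark. The sum was lower in dark roots at 7 d than in dark roots at 4 d, and so were most of the single markers, abundant and scarce. NRT1.1 averaged 152 CPM in the dark at 7 d and 254 CPM in the dark at 4 d, CASP1 43.0 and 127 CPM, and PHT1;1 167 and 219 CPM. In the same order, CASP2 averaged 11.3 and 48.9 CPM, PIN2 92.0 and 148 CPM, SCR 38.5 and 43.2 CPM, and PLT1 11.4 and 15.8 CPM. GL2 averaged 4.70 and 12.8 CPM, WER 0.99 and 4.36 CPM, COBL9 0.36 and 3.27 CPM, and IRT1 0.074 and 0.16 CPM. PLT2, with 9.29 and 9.46 CPM, and MYB36, with 61.8 and 62.3 CPM, were nearly equal. Only SHR, with 14.7 and 13.3 CPM, and WOX5, with 1.02 and 0.48 CPM, were higher in the dark at 7 d. Only IRT1 (404 and 47.4 CPM), PHT1;1 (295 and 288 CPM) and WOX5 (1.19 and 1.05 CPM) were higher in lit roots at 7 d than in lit roots at 4 d. The other matched markers were lower, among them NRT1.1 (484 and 595 CPM) and CASP1 (96.6 and 173 CPM). The near-equal lit sums thus include the rise of IRT1. MYB36 was lower with lit shoots than in the dark at both ages, with lit means of 39.2 CPM at 4 d and 21.1 CPM at 7 d. The part of root cell makeup in the members' values was not tested. All 15 matched root markers were detected, while 11 of 16 shoot markers had under 20 counts over all libraries, among them MUTE, FAMA and EPF1 with 0. The shoot epidermis and wax markers were higher: KCS10 averaged 39.1 CPM with lit shoots and 51.2 CPM in the dark at 4 d, and 46.7 CPM with lit shoots and 46.8 CPM in the dark at 7 d. PDF1 averaged 13.5 CPM with lit shoots and 0.074 CPM in the dark at 7 d. Over all libraries PDF1 had 860 counts, ATML1 562, CER1 396 and the stomatal TMM 45. Shoot markers summed to 41.6 to 46.3 CPM with lit shoots at 4 d, against 49.4 to 65.0 CPM in the dark, and to 64.2 to 70.2 CPM with lit shoots at 7 d, against 48.7 to 49.9 CPM in the dark; their part in the members' values was not tested.

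Overlap with other genes touched a few members. TIL shares 23.9% of its locus with YKT61 on the other strand, OTP70 shares 15.5% with AT4G25260 and MPS1 16.0% with AT5G57887 on the same strand, and RUS4 shares 5.58% with XLG1 on the other strand. Whether the counting used strand was not given in the sources used here, so reads in these stretches cannot be assigned to one gene. TAF4B shares 16.9% with AT1G27710, which had at most 1 count in any library.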

How the data were processed

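Total RNA of the roots was depleted of ribosomal RNA and sequenced. The authors deposited 1 table of raw counts of reads per locus for 8 libraries; the submitters' processing notes name CASAVA 1.8.2, FastQC, Trim Galore, TopHat2, Subread and the build TAIR10, while their settings, among them strand use and the handling of multiply matching reads, are not stated there. Library totals were 25326045 to 30555290 counts.

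CPM were counts divided by the library total. The 37 loci and the gene lists were chosen with earlier results of these data known. Across all loci, edgeR 4.0.16 (R 4.3.3) quasi-likelihood tests with TMM scaling were fitted on 20936 loci left by its default low-count filter (minimum count 10), with 4 groups in 1 model, adjusted by Benjamini-Hochberg, and called at an adjusted p below 0.05; replicate spread amounted to a common coefficient of variation of 14.9%. The fit was tested on simulated counts. Every p-value rests on a spread between biological samples that was pooled over the 4 groups of 2 and moderated across loci. It is thus not the spread within the 2 compared groups alone. An exact permutation test of 2 against 2 cannot go below 0.333. Promoters, exons and overlaps came from RefSeq's annotation of TAIR10.1, in which all 37 loci were found, and copies from blastn (BLAST 2.17.0; at least 100 aligned bases at 90% identity or more). Of 619 list entries, 32 were dropped because they matched no single locus. Loci named in the text were all members with a symbol, the members nearest the limits and the non-members nearest them; members without a symbol are named to account for every member. Alternatives were other scalings, filters and limits, DESeq2 1.42.0, a replicate block and leaving out each library.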

Additional observations from a re-analysis of the deposited data

Results flagged for a closer look

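The members were chosen for a light effect that differs between the ages and are therefore not listed again. Among the relatives and neighbours of members that were examined, 4 loci had a light effect that differed between 7 d and 4 d by a test of the difference itself, edgeR's interaction term adjusted over all 20936 loci. DELTA-TIP, the vacuolar aquaporin related to TIP2;2, had an interaction of 3.1 on the log2 scale (adjusted p = 0.0077, edgeR): it averaged 111 ± 17.2 CPM with lit shoots and 4.45 ± 2.61 CPM in the dark at 7 d, and 202 ± 39.8 CPM with lit shoots and 68.2 ± 1.94 CPM in the dark at 4 d (SD, n = 2 each). CYP702A6 had an interaction of 2.07 (adjusted p = 0.0197, edgeR) and averaged 6.84 ± 0.045 CPM with lit shoots and 0.82 ± 0.21 CPM in the dark at 7 d. MGP3 had an interaction of -0.983 (adjusted p = 0.00901, edgeR) and SCA3 of -1.5 (adjusted p = 0.00198, edgeR). For MGP3 and SCA3 no direction was called at one of the ages, so neither is a called reversal.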

How the results depend on the processing

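Membership depended on the limits and on scaling. Light effects of members were recomputed under other scalings, with edgeR with and without a replicate block, or with 1 library left out. Of these 888 effects, 829 moved by less than the replicate SD, 59 moved by more, and 0 reversed. Of 74 effects each, 18 moved by more with TMM-scaled CPM, 4 with nuclear totals, 18 with edgeR and 19 with the replicate block. Leaving out 1 library moved none by more, which an SD from the same 2 libraries largely fixes. It could not reverse any, since the choice kept lit and dark libraries apart. A minimum of 5 CPM left 9 early-up and 12 early-down loci, and a 2-fold limit left 0 and 2. With TMM-scaled CPM, 16 and 23 loci met the limits, of which 6 and 12 were among the 17 and 20; with nuclear totals, 12 and 24 did, of which 11 and 20 were. Leaving out 1 library gave 17 to 25 early-up and 15 to 24 early-down loci. AT1G29030, AT1G67120, CHUP1, ACP4, DOT1, AT4G15390, AT4G24340 and ENP met the limits under TMM and without each library.

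Over all loci, the interaction had 3057 calls, 4964 with no low-count filter and 832 (without the first lit library at 4 d) to 2918 with 1 library left out. Age in the dark had 6624 calls, and 3487 to 6993 with 1 library left out. Age with lit shoots had 886 calls, 1771 with DESeq2 and 3056 with no low-count filter. With 1 library left out it had 0 to 1111; edgeR gave the 0 without the first lit library at 4 d, where 2716 loci had an unadjusted p below 0.05. The causes were not tested. Replicate numbers did not pair the samples (correlations of deviations 0.0155 to 0.0799); with the replicate block the interaction had 3065 calls, light 11887 at 4 d and 14377 at 7 d, and age 6627 in the dark and 965 with lit shoots. With the 250 bases before the start alone, the telo-box lay in 5.88% of early-up and TGTCTC in 5% of early-down promoters, the other 24 shares staying within their intervals. Depth limits the loci with few counts, of which 14 had under 100 in a library.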

Other observations

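Families of products related to early-up members were looked up after the values were seen, so they are described without a test. Of 134 loci at 2 CPM or more whose product is annotated as a pentatricopeptide repeat protein, a family that processes organelle RNA, 26 (19.4%) were higher with lit shoots at 4 d and lower at 7 d with libraries that did not overlap at either age, and 0 showed the opposite pattern. Over all 15231 loci these shares were 3.89% and 1.26%. The median log2 light effect of the family was 0.44 at 4 d and -0.13 at 7 d, beside 0.14 and 0.06 over all loci. Of 189 loci whose product names a tetratricopeptide repeat, 26 (13.8%) were up and then down in this way, and 2 (1.06%) were the opposite. The median effects of these loci were 0.34 at 4 d and -0.13 at 7 d, and 2 of them were early-up members.

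Among 10 loci annotated as plastid transcriptionally active, named for a plastid fraction that also holds the PDE312 protein, 4 had such a non-overlapping pattern: PTAC2, PTAC3, PTAC12 and PTAC14. PTAC12 averaged 12.5 ± 1.06 CPM with lit shoots and 9.18 ± 0.37 CPM in the dark at 4 d, and 11.7 ± 0.10 CPM with lit shoots and 17.1 ± 0.75 CPM in the dark at 7 d (SD, n = 2 each). PTAC2 averaged 12.2 ± 1.25 CPM with lit shoots and 8.56 ± 0.56 CPM in the dark at 4 d, and 10.4 ± 1.08 CPM with lit shoots and 15.9 ± 2.32 CPM in the dark at 7 d. None of the 4 reached 1.5-fold at both ages, as the choice of the 37 loci required.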
